A study of Homo sapiens with 10 samples.

Results

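The keratins described here are 8 genes, chosen by Ensembl gene ID as the keratins that mark ductal and squamous epithelium, out of 20289 genes in a ribosome profiling table. The ductal or simple-epithelial genes are KRT7, KRT8, KRT18 and KRT19, KRT20 marks gastric and intestinal epithelium, and KRT17, KRT5 and KRT6A mark basal or squamous epithelium. Ribosome profiling sequences the short mRNA pieces that a translating ribosome shields from nuclease, so a value reflects both how much mRNA is present and how densely it is translated. It was done in 2 established human cell lines from pancreatic ductal adenocarcinoma, CFPAC-1 and PANC-1, with 10 libraries in all. CFPAC-1 received 0.1% DMSO (2 libraries) or 10 µM imidazole ketone erastin (IKE, 2 libraries), and PANC-1 received 0.1% DMSO (2 libraries) or 1 µM IKE (4 libraries). IKE is an erastin derivative that blocks cystine import and induces ferroptosis, and the series looked for regulators of that form of death. Only surviving cells were collected, so each IKE group is a selected remainder of its culture. The treatment label gives 24 h while the extraction protocol describes treatment on consecutive days, and the 2 accounts could not be reconciled here. Each line received its own IKE dose, and line and dose cannot be told apart where the effects of IKE are compared. Replicates are called biological in the labels, with no word on whether they were separate cultures, so p-values measure the spread between these libraries, which may be partly technical.

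Keratins are the intermediate filament proteins of epithelial cells. They assemble as obligate pairs of an acidic type I and a basic type II protein, and a chain without a partner is degraded. KRT8 (type II) and KRT18 (type I) form the founding pair of simple epithelia, KRT7 (type II) and KRT19 (type I) are added in ducts, and antibodies to KRT7, KRT19 and KRT20 are used to classify carcinomas of the pancreas and gut. KRT5 with its type I partners builds the filaments of basal cells, and KRT6A and KRT17 are switched on in wounded or hyperproliferative stratified epithelium and in basal-like pancreatic tumours.

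CFPAC-1 translated KRT19, KRT8, KRT18 and KRT7 at high levels, KRT20 and KRT17 at lower ones and almost no KRT5 or KRT6A. PANC-1 translated KRT8, KRT18 and KRT19 abundantly, but little KRT7 and next to no KRT20 or KRT17. The 4 ductal keratins were thus all prominent in CFPAC-1, while KRT7 was not among the prominent ones in PANC-1. Of the basal or squamous keratins, KRT5 and KRT6A were at or near 0 in all 10 libraries. KRT17, which belongs with them, stood at 37.3 to 57.6 FPKM in CFPAC-1. Levels are in FPKM, footprint fragments scaled by gene length and library size, and different genes are set side by side on that scale. The annotation behind the lengths and the handling of multiply matching reads are not given, so ratios between genes are approximate. In such bulk libraries, fewer cells with a keratin and less of it per cell cannot be told apart.

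**Figure D1:**
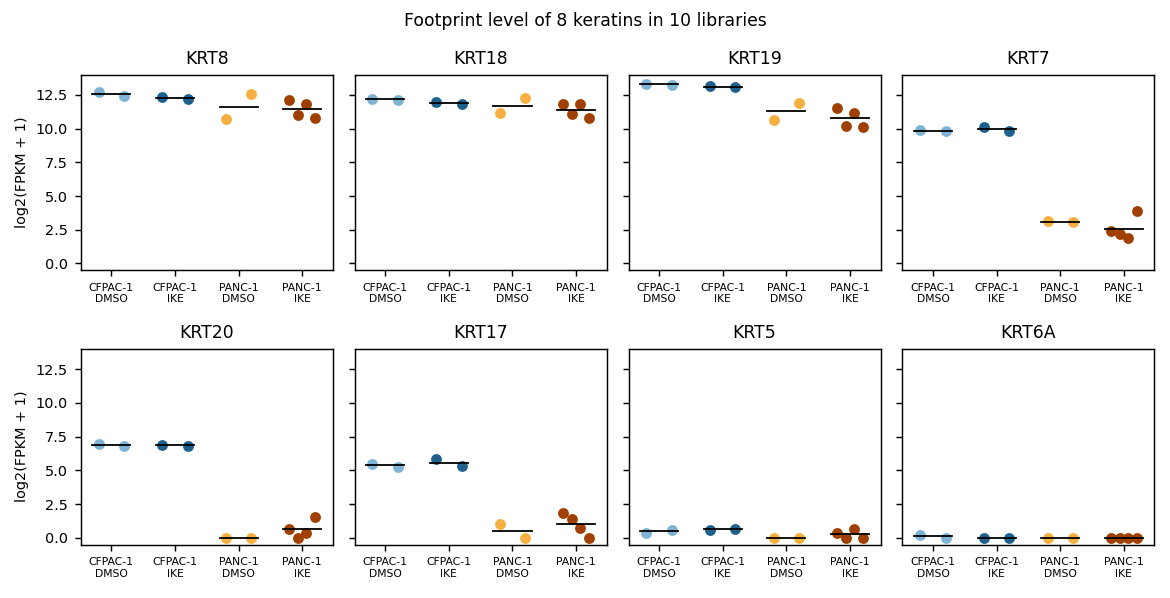
Footprint level of each keratin, as log2(FPKM + 1), in the 4 groups (2, 2, 2 and 4 libraries); each point is a library, in replicate order from left to right, and each bar is the group mean. KRT8 and KRT18 overlapped between the lines, while KRT19, KRT7, KRT20 and KRT17 lay higher in every CFPAC-1 library than in any PANC-1 library. The share of all genes that separated the lines in this way was not counted.

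PANC-1 libraries were shallower and more variable than CFPAC-1 libraries. Relative to CFPAC-1 DMSO replicate 1 at 1.00, depth ran from 0.916 to 1.17 in the other CFPAC-1 libraries and from 0.210 to 0.875 in PANC-1, as read from the steps between low FPKM values. Absolute depth is unknown. The median residual SD over 13125 genes on the log2 scale was 0.180 for CFPAC-1 libraries and 0.481 for PANC-1 libraries.

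Gene positions are RefSeq's whole gene spans, introns included, on GRCh38.p14. Among the type II keratins, KRT8 (ENSG00000170421, chr12:52897191-52949860) was at 6789 and 5332 FPKM in CFPAC-1 DMSO replicates 1 and 2 and at 5059 and 4757 FPKM in the IKE replicates. In PANC-1 the DMSO libraries had 1646 and 5975 FPKM and the IKE libraries 4412, 2047, 3653 and 1788 FPKM (replicates 1 to 4). It ranked between 6 and 15 of 20289 genes in CFPAC-1 and between 14 and 132 in PANC-1. The highest PANC-1 value, in DMSO replicate 2, lay inside the CFPAC-1 range.

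KRT7 (ENSG00000135480, chr12:52233243-52255853), the type II keratin of ducts, stood at 969 and 880 FPKM in DMSO-treated and at 1081 and 890 FPKM in IKE-treated CFPAC-1. In PANC-1 the DMSO libraries had 7.65 and 7.23 FPKM and the IKE libraries 4.31, 3.56, 2.67 and 13.8 FPKM (replicates 1 to 4). The lowest CFPAC-1 library stood 63.9 times above the highest PANC-1 library, which was IKE replicate 4.

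Among the type I keratins, KRT18 (ENSG00000111057, chr12:52948855-52952906), the partner of KRT8, stood at 4771 and 4424 FPKM in DMSO-treated and at 4100 and 3669 FPKM in IKE-treated CFPAC-1. In PANC-1 the DMSO libraries had 2225 and 4999 FPKM and the IKE libraries 3665, 2190, 3547 and 1757 FPKM (replicates 1 to 4). The lines overlapped. RefSeq's spans of KRT8 and KRT18 overlap at their ends on GRCh38, and the strand setting of the counting is not given in the sources used here.

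KRT19 (ENSG00000171345, chr17:41523617-41528308), a small type I keratin of ducts, stood at 10286 and 9737 FPKM in DMSO-treated and at 9229 and 8440 FPKM in IKE-treated CFPAC-1. It held rank 5 in each of the 4 CFPAC-1 libraries. In PANC-1 the DMSO libraries had 1614 and 3788 FPKM and the IKE libraries 2954, 1173, 2255 and 1126 FPKM (replicates 1 to 4), with ranks from 30 to 167. The lowest CFPAC-1 value was 2.23 times the highest PANC-1 value.

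KRT20 (ENSG00000171431, chr17:40875889-40885242), the type I keratin of intestinal epithelium, stood at 125 and 111 FPKM in DMSO-treated and at 116 and 112 FPKM in IKE-treated CFPAC-1. It was listed at 0 in both PANC-1 DMSO libraries and in IKE replicate 2, and at 0.600, 0.260 and 1.86 FPKM in IKE replicates 1, 3 and 4. The basal keratin KRT17 (ENSG00000128422, chr17:41619442-41624575) stood at 43.1 and 37.3 FPKM in DMSO-treated and at 57.6 and 37.9 FPKM in IKE-treated CFPAC-1. In PANC-1 the DMSO libraries had 1.06 and 0 FPKM and the IKE libraries 2.58, 1.69, 0.690 and 0 FPKM (replicates 1 to 4). The lowest CFPAC-1 library was 59.6 times the highest PANC-1 library for KRT20 and 14.5 times for KRT17. How many genes outside the keratins separated the lines without overlap was not counted.

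KRT5 (ENSG00000186081, chr12:52514575-52520394), the type II keratin of basal cells, stood at 0.300 and 0.480 FPKM in DMSO-treated and at 0.490 and 0.610 FPKM in IKE-treated CFPAC-1. In PANC-1 it was above 0 only in IKE replicates 1 (0.310 FPKM) and 3 (0.540 FPKM). KRT6A (ENSG00000205420, chr12:52487176-52493257), a type II keratin of stratified epithelium, was at 0.160 FPKM in CFPAC-1 DMSO replicate 1 and listed at 0 in the other 9 libraries. These values lie at the bottom of the scale, where 5% of a library's values above 0 were at or below 0.250 to 0.870 FPKM. The 2 genes had a mean under 1 FPKM and were not tested. KRT6A has near-identical neighbours in KRT6B and KRT6C, and KRT8, KRT18, KRT19 and KRT17 have processed pseudogenes. How reads that match several genes were counted is not given in the sources used here.

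Of the 8 genes, 3 had an entry in the RefSeq promoter table used here (GRCh38.p14): KRT20, KRT5 and KRT8. The 250 bases before the start of KRT20, a gene on in CFPAC-1 and listed at or near 0 in PANC-1, and of KRT5, near 0 in both lines, are shown to set a keratin that differed between the lines beside one that was low in both. The KRT8 entry starts inside the annotated gene span and is not shown. Both sequences run 5′ to 3′ on the minus strand, KRT20 at chr17:40885243-40885492 and KRT5 at chr12:52520395-52520644, with each ATAAAA in capitals.
KRT20: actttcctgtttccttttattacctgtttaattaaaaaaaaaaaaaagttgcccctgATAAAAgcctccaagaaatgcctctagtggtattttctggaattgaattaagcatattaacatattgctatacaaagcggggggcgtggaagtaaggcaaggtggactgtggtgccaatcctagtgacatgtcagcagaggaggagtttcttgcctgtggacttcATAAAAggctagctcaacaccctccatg
KRT5: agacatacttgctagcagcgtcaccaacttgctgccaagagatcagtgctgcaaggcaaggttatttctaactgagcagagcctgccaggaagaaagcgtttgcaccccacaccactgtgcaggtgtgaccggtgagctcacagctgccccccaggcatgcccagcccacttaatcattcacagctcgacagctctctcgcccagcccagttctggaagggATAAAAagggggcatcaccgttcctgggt
Of 4 motifs searched on both strands (TATAAA of the TATA box, its variant ATAAAA, which can overlap it, GGGCGG of the GC box and TGANTCA of the AP-1 site), the variant ATAAAA was the only one with a match in either window. It began at position -28 of KRT20 and -29 of KRT5, counting the base before the start as -1, and again at -193 of KRT20, with a further match on the opposite strand of KRT20. On the gene's own strand it occurred in 8.76% of 35116 promoters, and on either strand in 14.8%. TATAAA occurred in 10.7% of promoters on either strand, the GC box sequence in 42.6% and the AP-1 sequence in 6.57%. KRT20 and KRT5 thus held this sequence at nearly the same distance from the start.

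The first comparison set the lines side by side in DMSO. PANC-1 was lower in 4 of the 6 tested keratins: KRT19, KRT7, KRT20 and KRT17. KRT20 passed the filter of a mean of 1 FPKM only through CFPAC-1 (mean 116 FPKM, against 0.453 FPKM over the PANC-1 libraries). Its call could therefore only come out lower in PANC-1. KRT17 was close to that case, with a mean of 44.0 FPKM in CFPAC-1 and 1.00 FPKM in PANC-1. KRT8 and KRT18, the pair that all simple epithelia share, did not pass the test. Over all 13125 tested genes 37.9% were called, and 21.1% were called lower in PANC-1. The median difference of all tested genes was -0.03 on the log2 scale.

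The test was limma's moderated test on log2(FPKM + 1), and all differences are given on that scale, where changes of low genes come out too small; a gene was called at a Benjamini-Hochberg adjusted p under 0.05 over all tested genes. KRT7 averaged 924 ± 62.6 FPKM (SD, n = 2) in CFPAC-1 and 7.44 ± 0.297 FPKM (SD, n = 2) in PANC-1. It differed by -6.78 ± 0.44 (SE; limma adjusted p = 1.03e-06), 110-fold on this scale, and 0.541% of all tested genes differed more in either direction. KRT20 was called as well (limma adjusted p = 6.43e-07), but both PANC-1 libraries were listed at 0, so the size of its difference is not given. KRT17 differed by -4.84 ± 0.53 (limma adjusted p = 3.80e-05), a size that ran from -6.88 with a pseudocount of 0.1 FPKM to -3.03 with 5 FPKM.

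KRT19 averaged 10011 ± 388 FPKM (SD, n = 2) in CFPAC-1 and 2701 ± 1538 FPKM (SD, n = 2) in PANC-1. It differed by -2.02 ± 0.41 (SE; limma adjusted p = 0.00304), 4.05-fold. This call was lost without PANC-1 DMSO replicate 1, where the difference was -1.40 and the adjusted p was 0.0765. KRT8 differed by -0.94 ± 0.48 (95% interval -1.99 to 0.11; limma adjusted p = 0.147) and KRT18 by -0.46 ± 0.37 (-1.27 to 0.35; limma adjusted p = 0.354). These intervals do not show equal levels. Without PANC-1 DMSO replicate 2 the KRT8 difference was -1.87 and was called (limma adjusted p = 0.0231), and without replicate 1 it was -0.01 (adjusted p = 0.998). Quantile normalization also brought a call for KRT8 (-1.44; adjusted p = 0.0370).

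**Figure D2:**
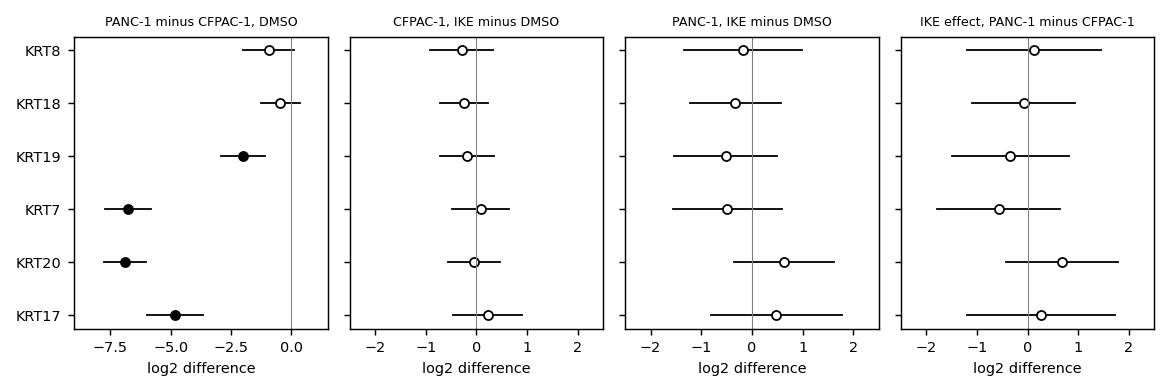
Fitted log2 differences of the 6 tested keratins in 4 comparisons, on the log2(FPKM + 1) scale; bars are 95% intervals, filled points had a limma adjusted p under 0.05, and the first panel has a wider axis. KRT19, KRT7, KRT20 and KRT17 were lower in PANC-1 than in CFPAC-1 with DMSO, and all intervals of the IKE effects include 0. The sizes for KRT20 in the comparisons that use PANC-1 DMSO, where it was listed at 0, are set by the pseudocount.

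Those PANC-1 DMSO libraries differed widely in their abundant keratins. From replicate 1 to replicate 2 KRT8 differed by 1.86 on the log2 scale, KRT18 by 1.17 and KRT19 by 1.23, while KRT7 differed by -0.07. Between these 2 libraries 3.27% of tested genes differed more than KRT8, 13.9% more than KRT18 and 11.9% more than KRT19, and the median gene differed by 0.51. The CFPAC-1 DMSO libraries differed by -0.35 for KRT8, -0.11 for KRT18 and -0.08 for KRT19.

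Within a library the abundant keratins kept more even proportions than their levels. Over the 6 PANC-1 libraries the highest value was 3.63 times the lowest for KRT8, 2.85 times for KRT18 and 3.37 times for KRT19. DMSO replicate 2 and IKE replicates 1 and 3 held the 3 highest values of each of these genes. The ratio of KRT8 to KRT18 ranged from 0.740 to 1.20, and was 0.935 or more in each library except DMSO replicate 1. In CFPAC-1 it ranged from 1.21 to 1.42, above every PANC-1 library by a margin that was small for the highest of them.

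Depth and the concentration of the libraries are given beside these levels. Relative depth was 0.327, 0.875 and 0.500 in the PANC-1 libraries with high keratin levels (DMSO replicate 2, IKE replicates 1 and 3) and 0.506, 0.239 and 0.210 in those with low levels (DMSO replicate 1, IKE replicates 2 and 4). The share of summed FPKM in the top 10 genes was 8.58%, 9.29% and 12.2% in the former and 8.51%, 16.2% and 23.1% in the latter. The part of either in the keratin levels was not tested.

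The mix of keratins also differed between the lines. Among the abundant keratins KRT8, KRT18 and KRT19, only KRT19 had levels that did not overlap between the lines. KRT19 was 2.16 to 2.30 times KRT18 in the 4 CFPAC-1 libraries and 0.536 to 0.806 times KRT18 in the 6 PANC-1 libraries. KRT19 held 44.8% to 47.4% of the summed FPKM of the 8 keratins in CFPAC-1 and 21.7% to 29.4% in PANC-1. KRT18 held 20.5% to 21.6% in CFPAC-1 and 33.2% to 40.5% in PANC-1. A share of a sum rises when another member is lower, and KRT18 itself averaged 4241 FPKM in CFPAC-1 and 3064 FPKM in PANC-1. The ratios and shares are free of the scaling between libraries. They are given as a description, without a test.

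KRT7 added 4.22% to 5.51% of the sum in CFPAC-1 and at most 0.294% in PANC-1, and KRT20 and KRT17 stayed minor in all libraries, with at most 0.628% and 0.293%. Summed over the type II members (KRT7, KRT8, KRT5, KRT6A) and the type I members (KRT18, KRT19, KRT20, KRT17), type II stood at 0.434 to 0.510 times type I in CFPAC-1. In PANC-1 the ratio was 0.431 in DMSO replicate 1 and 0.609 to 0.681 in the other 5 libraries. Other keratins of the table are not in these sums, because the table pairs no ID with a name. The 8 keratins held 1.45% to 1.83% of all summed FPKM in CFPAC-1 and 0.363% to 1.25% in PANC-1.

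**Figure D3:**
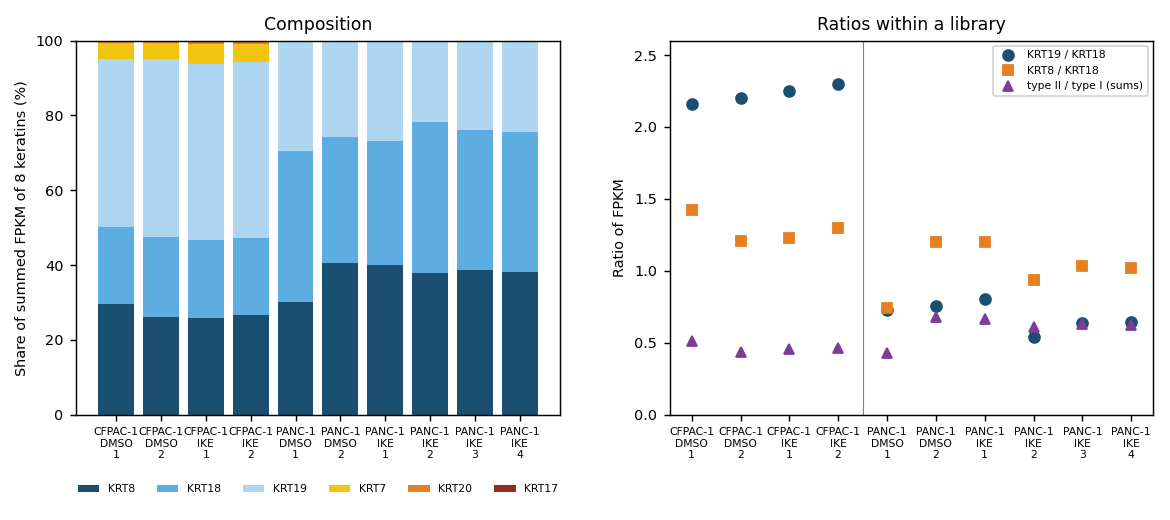
Left, share of the summed FPKM of the 8 keratins taken by each of the 6 tested members, in each library (KRT5 and KRT6A are too small to show). Right, ratios of FPKM within each library, with CFPAC-1 left of the line; KRT19 over KRT18 is above 2 in CFPAC-1 and below 1 in PANC-1, with 0.806 as the highest PANC-1 value.

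The second comparison asked whether surviving CFPAC-1 cells translated keratins differently after 10 µM IKE. Of the 6 keratins tested, 0 were called by limma, and 0 had an unadjusted p under 0.05. Of all 13125 tested genes, 0.350% were called and 1540 had an unadjusted limma p under 0.05. Among only 6 genes, a count of 0 does not set the keratins apart from that share. KRT8, KRT18 and KRT19 were each lower in both IKE libraries than in either DMSO library. Both IKE libraries were likewise below both DMSO libraries for 22.3% of all tested genes. KRT8 differed by -0.29 ± 0.28 (SE; 95% interval -0.91 to 0.32; limma adjusted p = 0.762). KRT18 differed by -0.24 ± 0.22 (-0.72 to 0.23; limma adjusted p = 0.740) and KRT19 by -0.18 ± 0.24 (-0.72 to 0.35; limma adjusted p = 0.853).

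KRT7, KRT20 and KRT17 overlapped between the CFPAC-1 groups. Their differences were 0.09 ± 0.26 for KRT7 (95% interval -0.48 to 0.65), -0.05 ± 0.23 for KRT20 (-0.56 to 0.47) and 0.22 ± 0.31 for KRT17 (-0.46 to 0.90), with limma adjusted p of 0.951, 0.980 and 0.864. The KRT17 mean rested on IKE replicate 1 at 57.6 FPKM, since replicate 2 at 37.9 FPKM lay between the DMSO libraries. All 6 intervals of this weighted fit lie within a 2-fold change in either direction. Without library weights the SE was 0.59 for KRT8 and 0.59 for KRT17. In the fit of CFPAC-1 alone it was 0.18 and 0.25. The bound therefore depends on how the spread was estimated.

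The third comparison asked the same of PANC-1 after 1 µM IKE. Of the 6 keratins, 0 were called and 0 had an unadjusted p under 0.05, and of all 13125 tested genes 0% were called, with 1429 genes at an unadjusted limma p under 0.05 and 2 genes called when the libraries were not weighted by line. The IKE and DMSO values overlapped for each of the 6 genes. KRT8 differed by -0.18 ± 0.53 (SE; 95% interval -1.35 to 0.99; limma adjusted p = 0.930), KRT18 by -0.33 ± 0.41 (-1.23 to 0.58; adjusted p = 0.792) and KRT19 by -0.52 ± 0.46 (-1.54 to 0.50; adjusted p = 0.696). Without DMSO replicate 2 these differences were 0.75, 0.26 and 0.09, and without replicate 1 they were -1.11, -0.91 and -1.14. Their direction therefore turned on which DMSO library was used.

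KRT7 was lower in IKE replicates 1 to 3 than in both DMSO libraries and higher in replicate 4, a difference of -0.49 ± 0.49 (95% interval -1.56 to 0.59; limma adjusted p = 0.733). Without IKE replicate 4 it was -0.92 ± 0.28, still not called (adjusted p = 0.371). KRT17 differed by 0.48 ± 0.59 (-0.81 to 1.78; limma adjusted p = 0.783), a size that was 1.20 with a pseudocount of 0.1 FPKM and 0.16 with 5 FPKM. KRT20 was above 0 in 3 of 4 IKE libraries and listed at 0 with DMSO (limma adjusted p = 0.614), and its values did not exceed 1.86 FPKM.

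IKE replicate 4 held the highest KRT7 and KRT20 of the PANC-1 libraries. There KRT7 was at 1.44% of its CFPAC-1 mean and KRT20 at 1.60%, against 0.280% to 0.801% and 0 to 0.517% in the other 5 libraries. KRT17 was listed at 0 in that library. It was also the shallowest library, at a relative depth of 0.210, and 5% of its values above 0 were at or below 0.870 FPKM. KRT20 stood at 1.86 FPKM there, near the bottom of the scale. A set of 26 genes, each at 200 FPKM or more throughout CFPAC-1 and listed at 0 in DMSO replicate 2 of PANC-1, summed to 0.870% of its CFPAC-1 mean in IKE replicate 4 and to at most 0.213% in the other libraries. The sum in DMSO replicate 2 was 0 by that choice, and the set was picked from these same libraries, so it is no independent comparison. Whether the 26 genes and the keratins share a source in IKE replicate 4 was not tested.

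**Figure D4:**
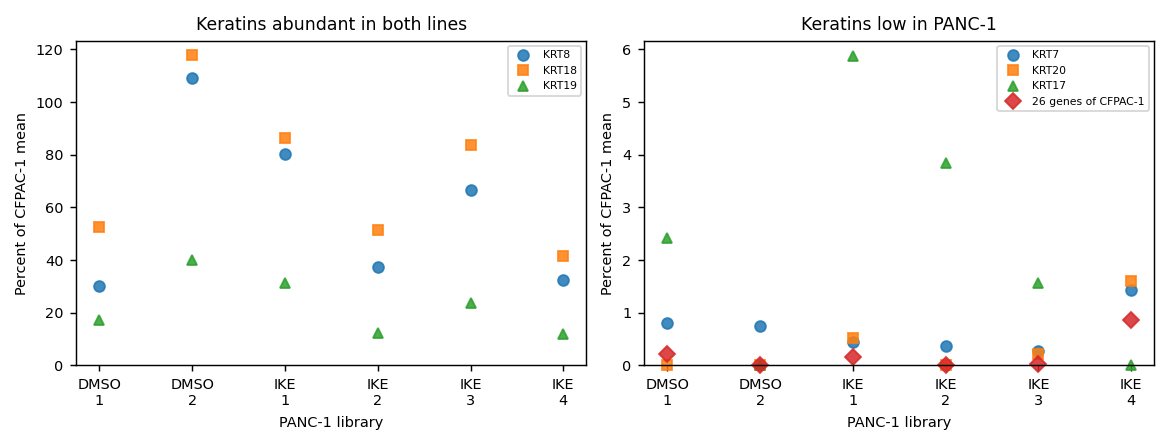
Level in each PANC-1 library as a percentage of the mean of the 4 CFPAC-1 libraries, left for KRT8, KRT18 and KRT19 and right for KRT7, KRT20, KRT17 and the sum of 26 genes abundant in CFPAC-1. KRT8 ran from 30.0% to 109% and KRT19 from 11.9% to 40.2%, with DMSO replicate 2 highest, while KRT7 did not exceed 1.44%.

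The fourth comparison set the IKE effect in PANC-1 against that in CFPAC-1, as PANC-1 minus CFPAC-1. Again 0 of 6 keratins were called by limma, and 0 had an unadjusted p under 0.05. Of all 13125 tested genes, 0.0229% were called and 1640 had an unadjusted limma p under 0.05. For KRT7 the difference was -0.57 ± 0.55 (95% interval -1.79 to 0.64; limma adjusted p = 0.707). Without PANC-1 IKE replicate 4 it was -1.01 ± 0.32 (adjusted p = 0.284), and without IKE replicate 3 it was -0.34, neither of them called. KRT20 was not called (limma adjusted p = 0.615), and its size is not given, since both PANC-1 DMSO libraries were listed at 0 and the value is set by the pseudocount. For KRT8 and KRT18 the differences were 0.12 ± 0.60 and -0.08 ± 0.46, for KRT19 -0.34 ± 0.52 and for KRT17 0.27 ± 0.66. A 2-fold difference in response lay within the interval of each of the 5 genes other than KRT20.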

How the data were processed

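Ribosome footprints of 10 libraries were prepared with cycloheximide, RNase I digestion, size selection and rRNA removal, per the labels' protocols. The authors deposited FPKM values, 1 column per library, per the file headers. The genome build was GRCh38, and RSEM, STAR, Bowtie2 2.2.8, DESeq2 and fastp were among the tools, per the submitters' processing notes, which give no roles. Annotation, strandedness and the handling of multiply matching reads were not given in the sources used here. None of the table's IDs matched a name in the reference table (0 of 20289). Only the 8 keratins are named, so the other gene lists planned by name and the other cell type markers were not used.

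The 13125 genes that averaged 1 FPKM or more were fitted with limma 3.58.1 in R 4.3.3 on log2(FPKM + 1): 4 groups, library weights estimated per line, empirical Bayes with trend, Benjamini-Hochberg adjustment over all genes. The weights let the lines differ in spread. On simulated data the weighted fit still called more unchanged genes than its threshold allows for the IKE effects. Alternatives covered weights, libraries, pseudocount, filter, normalization and the replicate number as a block. No replicate pair held identical libraries. The members, lists and tests were chosen with earlier results of these data known. The named genes are the 8 members.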

Additional observations from a re-analysis of the deposited data

Results flagged for a closer look

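KRT7 in PANC-1 IKE replicate 4, at 13.8 FPKM, stood apart from the other 3 IKE libraries (2.67 to 4.31 FPKM): its gap to the nearest library was 0.852 of the group's range, above the limit of 0.829 for 4 libraries. Of 10 keratin values checked in this way it was the single one past its limit. Chance passes the limit in about 1 in 20 values checked, so 1 among 10 is not rare. The other 3 libraries lay below both DMSO libraries (7.65 and 7.23 FPKM).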

How the results depend on the processing

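The baseline calls numbered 4 in the main fit and with the replicate block, 5 with quantile normalization and 3 to 5 with 1 library left out; KRT7, KRT20 and KRT17 were called in all 21 alternatives and KRT19 in 20. The KRT20 call, and nearly so the KRT17 call, could only come out lower in PANC-1, so these counts add no support for either gene. No alternative called a keratin for an IKE effect or for the difference of the effects. The labels link same-numbered libraries by number alone. The correlation of replicate differences was 0.05 between the CFPAC-1 groups and -0.21 between the PANC-1 groups. Such values cannot decide whether these libraries shared a culture or a day. With the replicate block the CFPAC-1 calls over all genes fell to 9. Over all genes, alternatives gave 2868 to 5699 baseline calls (main 4970), 0 to 77 for IKE in CFPAC-1 (46; 1 without weights, 0 in the fit of that line alone), 0 to 2 for IKE in PANC-1 (0) and 0 to 6 for the difference (3). The type II over type I ratio of CFPAC-1 IKE moved from 0.458 to 0.443 with quantile normalization.

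Of 516 recomputed keratin differences 30 changed sign, none with a call. Without the 2 shallowest PANC-1 IKE libraries the IKE effect in PANC-1 was 0.36 for KRT8, 0.11 for KRT18 and 0.06 for KRT19, and the difference of effects 0.36 for KRT18 and 0.24 for KRT19. With 1 weight per library the KRT8 effect in PANC-1 was 0.10 and the KRT18 difference of effects 0.18; the latter was 0.05 with quantile normalization and 0.01 with the replicate block. The KRT17 difference of effects was 0.98 with a pseudocount of 0.1 FPKM and -0.04 with 5 FPKM, and that of KRT20 was 2.28 and 0.22. With 1 library left out, the IKE effect in PANC-1 ranged from -1.11 to 0.75 for KRT8, -0.91 to 0.26 for KRT18, -1.14 to 0.09 for KRT19, -0.92 to -0.25 for KRT7, 0.34 to 0.84 for KRT20 and -0.04 to 1.01 for KRT17. The effect in CFPAC-1 ranged from -0.47 to -0.12 for KRT8, -0.32 to -0.16 for KRT18, -0.25 to -0.12 for KRT19 (-0.00 with quantile normalization), -0.05 to 0.23 for KRT7, -0.13 to 0.04 for KRT20 and -0.08 to 0.51 for KRT17. The difference of effects ranged from -0.81 to 1.05 for KRT8, -0.67 to 0.50 for KRT18, -0.96 to 0.28 for KRT19, -1.01 to -0.34 for KRT7, 0.38 to 0.89 for KRT20 and -0.25 to 0.79 for KRT17, and the KRT18 difference between lines from -1.05 to 0.12. The cause of these changes was not tested. Where a group was left with 1 library, it was assumed to vary like the others. Adding KRT6B and KRT6C to KRT6A, and KRT14 and KRT16 to KRT17, was not run, since the table pairs no ID with those names. What depth means for the lowest keratins could not be measured, since absolute depth is unknown.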
